A study of Mus musculus with 4 samples.

Results

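The 10 genes described here are metallothioneins and redox defence genes: Mt1, Mt2, Hmox1, Txn1, Txnrd1, Txnip, Prdx1, Srxn1, Gclc and Gclm. They were chosen by name from 19504 measured genes, with their values in these arrays already known, so every value below is a description and none was tested. All 10 were measured, each by 1 row of the expression table, and all 10 passed the filter on low values in every comparison.

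The study profiled mouse group 3 innate lymphoid cells (ILC3s), which guard barrier tissues and lack rearranged antigen receptors, on 4 Affymetrix arrays. Lineage-negative cells with high CD90 and low CD45 were sorted, 1 array each, from circZbtb20+/+ mice, circZbtb20-/- mice, Nr4a1+/+ mice and Nr4a1-/- mice. circZbtb20 is a circular RNA from the Zbtb20 gene and Nr4a1 is an orphan nuclear receptor. Neither wild type is labelled with a deletion, and the labels used here name no treatment, tissue, age or strain. They also do not say whether animals were pooled or which part of Nr4a1 was removed. A single array stands for each genotype, so no replicate error can be given and precision is limited by that number. The 2 wild types are the nearest thing to a repeat, so each gene's difference between them stands beside its difference in each knockout.

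Metallothioneins are small, cysteine-rich proteins that bind zinc and copper, and their genes are induced by metals through the factor MTF1, by glucocorticoids and by oxidants. The thioredoxin and glutathione systems both reduce oxidised protein thiols and peroxides with electrons from NADPH. Many of their genes are targets of NRF2, a factor held back by KEAP1 until oxidants or electrophiles release it. TXNIP binds thioredoxin and inhibits it, and it also lowers glucose uptake.

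Values are the deposited log2 expression values, and a difference is a log2 difference, so 1 unit is 2-fold. A gene was counted as higher or lower if the difference was 2-fold or more and the higher value reached the median of its array over all rows. Those medians lay between 4.34 and 4.51. Levels are given for the circZbtb20 pair and then for the Nr4a1 pair, in each the wild type before the knockout. The highest value of the table, 19.93, was treated as a ceiling, and none of the 10 genes reached it.

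The cell type was checked before the redox genes were read. Nr4a1 itself was at 19.93, the ceiling, and 15.98 in the circZbtb20 pair and at 18.11 and 11.63 in the Nr4a1 pair. Its lowest value was thus on the array labelled as its knockout. That value of 11.63 was still far above the array's median of 4.34, so the level alone does not show the deletion. No row for the circular RNA was used here. The 15 measured ILC3 markers had medians of 15.06 and 16.55 in the circZbtb20 pair and 15.05 in the Nr4a1 wild type, but 5.50 in the array labelled Nr4a1 knockout. The 13 measured T cell and thymocyte markers had a median of 16.71 in that array, against 4.56 to 5.27 in the others. Against both wild types 11 of the 15 ILC3 markers were lower on that array and 1, Ltb, was higher. The shares of all genes were 15.7% and 28.4%. Il22 was at 19.93, the ceiling, as in both wild types. Id2 at 15.48 and Il7r at 13.40 counted as lower but stayed far above the array's median. All 13 T cell and thymocyte markers were higher. The array labelled Nr4a1 knockout therefore goes against its label as ILC3s by most of these markers. Every difference given for it was measured on that array alone. No comparison of the circZbtb20 knockout uses it. In a bulk sample, fewer cells of a type and less RNA per cell cannot be told apart.

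Mt1 and Mt2 were lower in both knockouts than in either wild type. They lie next to each other on mouse chromosome 8, at chr8:94178883-94180327 and chr8:94172618-94173567 in RefSeq GRCm38.p6, with 5315 bases between them. Both encode cysteine-rich metal-binding proteins, and whether their probes separate them fully was not tested. Because both were lowest on the same arrays, the DNA around their annotated starts was read for the core of the metal response element, to which MTF1 binds. The motif was searched as TGCACNC or TGCGCNC on both strands, from 250 bases before the annotated start to 50 bases after it. Mt1 held 3 matches and Mt2 held 4, printed here with 10 flanking bases and the matched letters in capitals.
Mt1, chr8:94179056-94179082: ggtcccgctgTGCACACtggcgctcca
Mt1, chr8:94179081-94179107: cagggagctcTGCACTCcgcccgaaaa
Mt1, chr8:94179099-94179125: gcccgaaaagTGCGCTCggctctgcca
Mt2, chr8:94172385-94172411: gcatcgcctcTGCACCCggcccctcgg
Mt2, chr8:94172480-94172506: gcagacccttTGCGCTCagctcctttg
Mt2, chr8:94172558-94172584: gggggagggcGTGTGCAggctctgtcc
Mt2, chr8:94172612-94172638: aattcgggtcGTGCGCAggcccagggg
Both genes lie on the plus strand, and the last 2 Mt2 lines show the motif as read on the other strand.

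Of 32851 windows of that length in the RefSeq promoter table, 25.7% held at least 1 match and 1.97% held 3 or more. Windows were not matched on base composition. Among the other redox genes Gclm also held 3 matches. Its values went the same way as those of Mt1 in the circZbtb20 knockout and the opposite way in the Nr4a1 knockout. The starts used for the Mt1 and Gclm windows, 94179089 and 122245557, lie inside the genes as RefSeq gives them. Before these starts, too, the windows are therefore not purely upstream sequence. A match is only a run of letters and does not show binding.

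Mt1 stood at 12.88 and 6.63 in the circZbtb20 pair and 13.12 and 5.35 in the Nr4a1 pair. Both wild types were high, and both knockouts were low, the Nr4a1 knockout lower by 1.28. The wild types differed by 0.24, while the circZbtb20 knockout differed from its own wild type by -6.25 and from the other by -6.49. The deposited value was thus 76.1-fold lower than in its own wild type, a fold that need not equal a ratio of RNA. Against the same wild types the Nr4a1 knockout was at -7.77 and -7.53, with the first 218-fold below its own wild type. Mt1 had the widest range of the 10 genes over the 4 arrays, 7.77, followed by Gclm at 3.74 and Mt2 at 3.69.

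Mt2 was at 7.74 and 6.68 in the circZbtb20 pair and 8.95 and 5.26 in the Nr4a1 pair. Its order over the arrays was the same as that of Mt1, with the Nr4a1 wild type highest and the Nr4a1 knockout lowest. The wild types themselves differed by 1.21, which is more than the circZbtb20 knockout differed from its own wild type, -1.06. Against the other wild type that knockout was at -2.27. With all arrays set to a common median the first value became -0.96, and Mt2 no longer counted as lower in that knockout. Mt2 was lower in the Nr4a1 knockout by -3.69 against its own wild type and by -2.48 against the other, beyond the gap between the wild types.

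**Figure D1:**
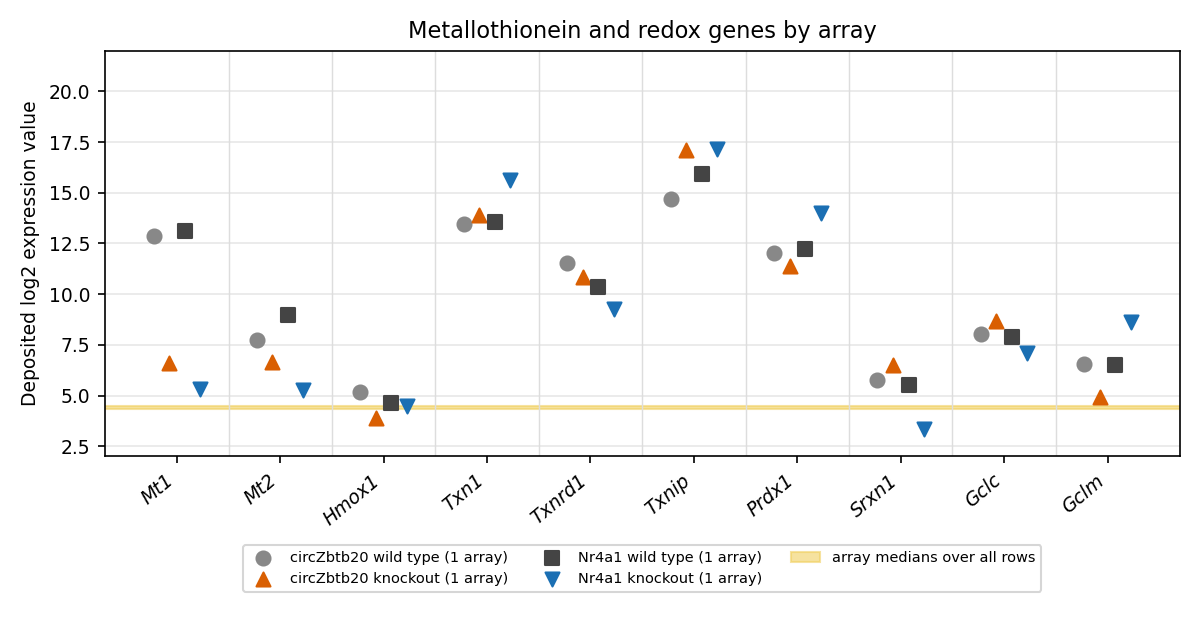
Deposited log2 expression value (vertical axis) of the 10 genes (horizontal axis) in the 4 arrays, 1 point per array, with the band of array medians over all rows. Mt1 lies at 12.88 and 13.12 in the wild types and at 6.63 and 5.35 in the knockouts, while Hmox1 stays near the medians on every array.

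Genes of other cell types also differed between these arrays, and their part in the metallothionein values was not tested. Of 15 measured pancreatic acinar markers 13 passed the filter in each knockout. Of these 10 counted as lower in the circZbtb20 knockout and 12 in the Nr4a1 knockout, each against both wild types, and none as higher. Among all genes past the filter 14.4% and 15.7% counted as lower. The summed level of the 15 acinar markers, as log2 of the sum of linear values, was 17.56 and 9.21 in the circZbtb20 pair and 14.32 and 8.19 in the Nr4a1 pair. The summed level of 15 intestinal epithelial markers was 10.15, 10.75, 12.53 and 8.05 in the same order of arrays. That of 16 macrophage and monocyte markers was 12.38, 14.58, 14.00 and 9.52. Fcgr3 was the highest of them in the circZbtb20 knockout, at 14.47. Lyz1 was the highest in the Nr4a1 wild type, at 12.87, on the array where the intestinal epithelial sum was also highest. Of 10 hepatocyte markers between 2 and 4 reached the array median.

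Mt1's values were closest to those of Il2ra, which encodes the alpha chain of the IL-2 receptor. Closeness was the Euclidean distance over the 4 arrays after each gene's own mean was removed. Il2ra is 1 of the 15 ILC3 markers, which did not share a direction. In the circZbtb20 knockout 7 of them were higher than both wild types and 6, Il2ra among them, were lower. The shares of all genes were 22.3% and 14.4%. Il2ra was at 12.22, 7.18, 12.64 and 5.14, a distance of 0.92, followed by Dennd5a at 0.94 and Ifrd1 at 1.5 among 9897 genes that could be compared. For Mt2 the nearest were Gla at 0.16, Slamf7 at 0.22 and Tpd52 at 0.26. With 4 arrays such likeness rests on only 4 values per gene and was not tested.

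Other genes of metal handling lay in both directions. The list holds 30 further genes, among them MTF1, other metallothioneins and the zinc and copper transporters. Of the 20 that passed the filter against both wild types, 6 counted as higher and 4 as lower in the circZbtb20 knockout, where 36.7% of all genes past the filter were called in either direction. Against its own wild type alone, 21 genes of the list passed the filter, with a median difference of 0.42. Over all 11122 genes past that filter it was 0.17. Mt4, a metallothionein known from stratified epithelium, was lower by -2.19 and -1.82 and lay below the array median. Slc39a9 was higher by 2.51 and 2.22 and Slc39a14 by 2.05 and 1.84, both genes of zinc importers. Atox1, which carries copper to its pumps, was higher by 2.03 and 2.09.

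In the Nr4a1 knockout 6 of the 23 metal handling genes past the filter were higher and 1 was lower, where 44.0% of all genes were called against both wild types. Mtf1, the metal-sensing activator of metallothionein genes, was at 8.96 there against 6.73 and 7.29 in the wild types, a difference of 1.67 and 2.23. Its own value was thus higher on the array where Mt1 and Mt2 were lowest. Slc30a4 was higher by 2.71 and 3.0 and Slc39a10 by 2.41 and 2.31. The gene counted as lower was Slc39a4, which encodes an intestinal zinc importer, at -3.60 and -1.55. Mt3, best known from brain, stayed between 3.39 and 3.58 on all 4 arrays, below every array median.

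Hmox1, which encodes the inducible haem oxygenase that degrades haem to biliverdin, iron and carbon monoxide, was low everywhere. It was at 5.17 and 3.90 in the circZbtb20 pair and 4.62 and 4.48 in the Nr4a1 pair. All these values lie near or below the array medians, where differences are poorly measured. It counted as lower only in the circZbtb20 knockout against its own wild type, at -1.27, and stood at -0.72 against the other wild type. The wild types differed by 0.55, so the Nr4a1 knockout, at -0.14 and -0.69, was not separated from them.

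Hmox2, the constitutive haem oxygenase, had opposite differences in the knockouts. It was at 8.72 and 7.97 in the wild types, 6.87 in the circZbtb20 knockout and 10.82 in the Nr4a1 knockout. The differences were -1.85 and -1.10 in the first and 2.85 and 2.10 in the second. With arrays set to a common median, the difference from the Nr4a1 wild type in the circZbtb20 knockout became -0.97, short of 2-fold.

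Of 24 haem and iron genes past the filter, 2 stood higher and 5 lower in the circZbtb20 knockout, beside 36.7% of all genes called. Fth1, the heavy chain of the iron store ferritin, was at the ceiling of 19.93 in both wild types and at 16.73 in that knockout, a difference of -3.20 that is only a bound. Ftl1, the ferritin light chain, was lower by -2.33 and -2.81, and Pcbp2, an RNA-binding protein that also delivers iron to ferritin, by -2.82 and -2.85. Both ferritin chains are NRF2 targets. Ppox, of haem synthesis, was higher by 2.94 and 4.07. Of 23 in the Nr4a1 knockout 8 were higher and 1 lower, beside 44.0% of all genes called. Ncoa4, the receptor that sends ferritin to lysosomes, was higher there by 2.23 and 2.42, Ireb2, an iron-sensing regulator, by 2.85 and 1.60, and the haem transporter Slc48a1 by 2.04 and 1.78. Ireb2 fell short of 2-fold, at 0.96, against the circZbtb20 wild type after cyclic loess normalization.

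The 3 core genes of the thioredoxin system did not share a direction. Txn1, the cytosolic thioredoxin, was at 13.44 and 13.91 in the circZbtb20 pair and 13.55 and 15.62 in the Nr4a1 pair. Only the Nr4a1 knockout stood apart. Its differences were 2.07 and 2.18 beside a gap of 0.11 between the wild types, while the circZbtb20 knockout was at 0.47 and 0.36, under 2-fold. T cell and thymocyte markers were at a median of 16.71 on the same array, and their part in the Txn1, Prdx1 and Gclm values was not tested.

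Txnrd1, the selenoprotein that reduces thioredoxin, was at 11.54 and 10.83 in the circZbtb20 pair and 10.37 and 9.27 in the Nr4a1 pair. Its wild types differed by -1.17, and no neighbouring values in its order were further apart than that. The circZbtb20 knockout lay between the wild types, at -0.71 from its own and 0.46 from the other. The first of these became -1.21 after quantile and -1.18 after cyclic loess normalization, past 2-fold. The Nr4a1 knockout was lowest, by -1.10 and -2.27, and by only -0.93 from its own wild type with arrays at a common median. Txn1 was thus higher and its reductase gene lower or level on that array.

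Txnip, the thioredoxin inhibitor, was at 14.70 and 17.11 in the circZbtb20 pair and 15.94 and 17.18 in the Nr4a1 pair. Both knockouts were above both wild types, and they differed from each other by -0.07. The wild types were 1.24 apart, so the size depends on which is used: 2.41 or 1.17 for the circZbtb20 knockout and 1.24 or 2.48 for the Nr4a1 knockout. After quantile normalization the Nr4a1 knockout was at 0.90 against its own wild type and no longer counted as higher. In both knockouts the distance to the nearer wild type, 1.17 and 1.24, was no larger than the gap between the wild types.

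Txnip belongs to the alpha-arrestins, and its closest relative in glucose response, Arrdc4, parted from it in 1 knockout. Arrdc4 was at 14.93 and 17.21 in the circZbtb20 pair and 15.44 and 4.10 in the Nr4a1 pair. In the circZbtb20 knockout both genes were higher, Arrdc4 by 2.28 and 1.77. Arrdc4 was lower in the Nr4a1 knockout by -11.34 and -10.83, to below that array's median, while Txnip was at its highest value of the 4 arrays. Both genes are known targets of the glucose-sensing pair MLXIP and MLX, which bind E-box pairs. The perfect E-box CACGTG was in 7.15% of all promoter windows. Arrdc4 held 1 such match, 193 bases before its annotated start. The gene lies on the minus strand, and its own strand is printed here with the E-box in capitals.
Arrdc4, chr7:68749416-68749441: aggtcctgtgCACGTGcactatggtg
The Txnip window held no exact match, which says only that these 6 letters are not in it.

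**Figure D2:**
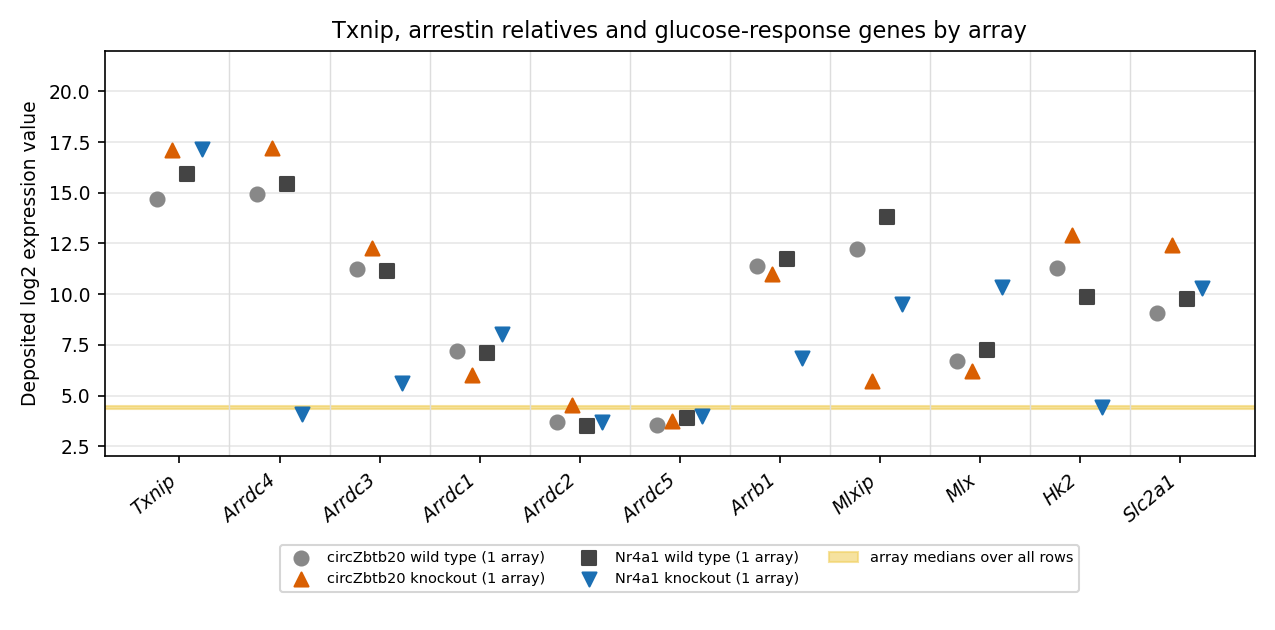
Deposited log2 expression value (vertical axis) of Txnip, other arrestin genes and glucose-response genes (horizontal axis) in the 4 arrays, 1 point per array, with the band of array medians. Arrdc4 is at 4.10 in the Nr4a1 knockout, where Txnip is at 17.18, and Mlxip is lowest in the circZbtb20 knockout at 5.74.

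Other genes around Txnip were spread in both directions. Of 15 regulators and arrestin relatives past the filter 6 stood higher and 4 lower in the circZbtb20 knockout, and of 14 in the Nr4a1 knockout 3 were higher and 7 lower, beside 36.7% and 44.0% of all genes called. Mlxip, the glucose-sensing activator of Txnip also called MondoA, was at 12.25 and 13.80 in the wild types, 5.74 in the circZbtb20 knockout and 9.51 in the Nr4a1 knockout. It was therefore lower in both knockouts, by -6.51 and -8.06 in the first and by -4.29 and -2.74 in the second, where Txnip was higher. Its partner Mlx was higher only in the Nr4a1 knockout, by 3.12 and 3.62.

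Glucose-handling genes of the same list had no common pattern. Hk2, which encodes a hexokinase, was higher by 1.62 and 3.02 in the circZbtb20 knockout and lower by -5.43 and -6.83 in the Nr4a1 knockout. Slc2a1, the glucose transporter GLUT1 whose uptake TXNIP restrains, was higher in the circZbtb20 knockout by 3.34 and 2.67. Slc2a3, another glucose transporter, was higher in both knockouts, by 1.34 and 1.12 and by 2.06 and 2.28. Ddit4, a stress-induced inhibitor of mTOR signalling, went the other way, at -1.64 and -2.29 in the circZbtb20 knockout and 3.16 and 3.81 in the Nr4a1 knockout. Arrdc3 and Arrb1 were lower in the Nr4a1 knockout, Arrdc3 by -5.49 and -5.59 and Arrb1 by -4.85 and -4.55. All of these Nr4a1 values come from the array with T cell markers at a median of 16.71.

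Prdx1, a peroxiredoxin that reduces peroxides and is itself restored by thioredoxin, followed Txn1 in the Nr4a1 knockout only. It was at 12.04 and 11.39 in the circZbtb20 pair and 12.23 and 14.01 in the Nr4a1 pair. The Nr4a1 knockout was higher by 1.78 and 1.97, with 0.19 between the wild types. The circZbtb20 knockout was lowest, at -0.65 and -0.84, under 2-fold. After quantile normalization both of those values became -1.21, and after cyclic loess normalization -1.01 and -1.12, so under these scalings Prdx1 counted as lower there.

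Srxn1, the sulfiredoxin that repairs over-oxidised peroxiredoxins, ran against Prdx1. It was at 5.76 and 6.52 in the circZbtb20 pair and 5.50 and 3.37 in the Nr4a1 pair. The Nr4a1 knockout was lower by -2.13 and -2.39, and its value lay below that array's median. The circZbtb20 knockout was highest, at 0.76 from its own wild type and 1.02 from the other. The second value became 0.96 after quantile normalization. Nearest to Srxn1 in pattern were Tcn2, which encodes a carrier of vitamin B12, at a distance of 0.17, Akap7 at 0.19 and Zfp869 at 0.21.

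Mitochondrial and other relatives of these enzymes were measured by a list of 27 thioredoxin, peroxiredoxin and glutaredoxin genes. Of 25 past the filter 7 stood higher and 6 lower in the circZbtb20 knockout, and of 24 in the Nr4a1 knockout 10 were higher and 5 lower, beside 36.7% and 44.0% of all genes called. Their median difference from the own wild type was 0.18 in the first and 0.88 in the second, against 0.17 and 0.29 over all genes past the filter. Prdx2, a peroxiredoxin abundant in the cytosol, was higher in both knockouts, by 3.89 and 4.6 in the first and by 4.30 and 3.59 in the second. Glrx, the cytosolic glutaredoxin, was lower in both, at 4.92 and 6.61 against 8.98 and 10.36 in the wild types.

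The mitochondrial glutaredoxin Glrx2 was higher in both knockouts, at 10.93 in the circZbtb20 knockout and 11.23 in the Nr4a1 knockout against 8.28 and 7.61 in the wild types. Glrx5, which serves iron-sulphur cluster assembly, was higher by 3.58 and 3.50 in the circZbtb20 knockout. Rrm1 and Rrm2, the subunits of the ribonucleotide reductase that thioredoxin and glutaredoxin supply with electrons, were higher in the Nr4a1 knockout only. Rrm2 was at 10.72 there, against 6.05 and 5.04 in the wild types and 3.58 in the circZbtb20 knockout. Rrm1 was at 12.41, against 7.03 and 7.35 in the wild types and 5.66 in the circZbtb20 knockout.

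Gclc and Gclm encode the catalytic and modifier subunits of glutamate-cysteine ligase, the first and rate-limiting enzyme of glutathione synthesis. Their values lay on opposite sides of the wild types in both knockouts. Gclc was at 8.04 and 8.67 in the circZbtb20 pair and 7.91 and 7.12 in the Nr4a1 pair. Its differences of 0.63 and 0.76 in the first knockout and -0.79 and -0.92 in the second stayed under 2-fold. Those of the second became -1.21 and -1.38 after quantile normalization and -1.39 and -1.56 after cyclic loess normalization, so under these it counted as lower.

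Gclm was at 6.54 and 4.91 in the circZbtb20 pair and 6.53 and 8.65 in the Nr4a1 pair. The wild types differed by -0.01, the smallest gap among the 10 genes. The circZbtb20 knockout was lower by -1.63 and -1.62, and the Nr4a1 knockout was higher by 2.12 and 2.11. Gclm was the one gene of the 10 that counted as lower in 1 knockout and higher in the other against both wild types, as 7.34% of 9814 genes past all filters did. Its nearest genes in pattern were Epn1, an adaptor of endocytosis, at a distance of 0.11, Cramp1l at 0.13 and Tomm70a, a receptor of mitochondrial protein import, at 0.16.

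**Figure D3:**
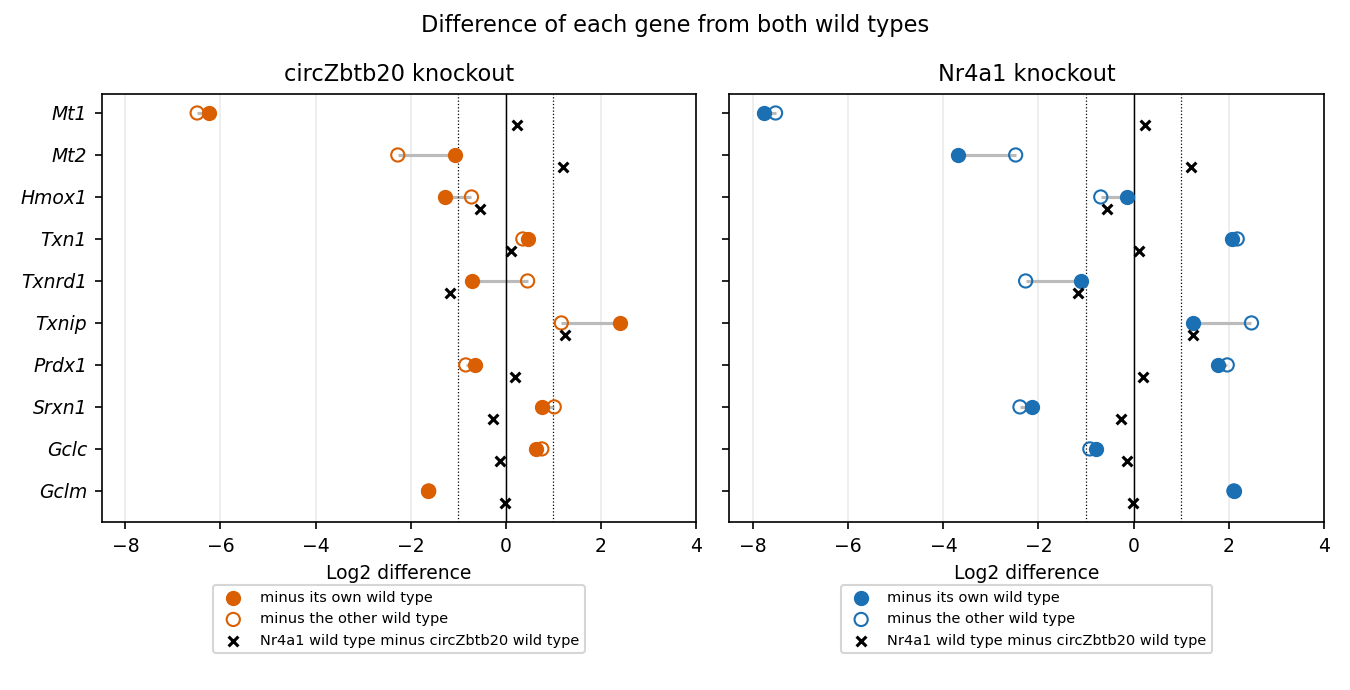
Log2 difference (horizontal axis) of each gene (vertical axis) in the circZbtb20 knockout and the Nr4a1 knockout from its own wild type (filled) and from the other wild type (open), with the difference between the wild types (crosses) and dotted lines at 2-fold. Mt1 lies far to the left in both panels, at -6.25 and -7.77 from the own wild type, and Gclm lies at -1.63 on one side and 2.12 on the other.

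The glutathione system around this enzyme was mixed. Of 28 genes past the filter in each, 8 stood higher and 3 lower in the circZbtb20 knockout, and 6 were higher and 8 lower in the Nr4a1 knockout, beside 36.7% and 44.0% of all genes called. Gpx3, the secreted glutathione peroxidase, was lower in both, at 5.22 in the circZbtb20 knockout and 3.90 in the Nr4a1 knockout against 8.86 and 10.36 in the wild types. Gpx1, the cytosolic peroxidase, was higher in the circZbtb20 knockout by 3.38 and 3.66. Mgst2, a microsomal transferase, was higher in both knockouts, by 3.43 and 4.4 in the first and by 3.86 and 2.89 in the second.

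Slc3a2, the heavy chain shared by the cystine importer and other amino acid transporters, was lower in both knockouts, by -1.96 and -2.79 in the circZbtb20 knockout and by -4.73 and -3.90 in the Nr4a1 knockout. Slc7a11, the light chain specific to that importer, was higher in the Nr4a1 knockout by 3.0 and 2.57. Gstm1, a glutathione transferase, was lower there by -4.55 and -3.24. Its relative Gstm5 was higher in the circZbtb20 knockout, by 2.94 and 4.99, and lower in the Nr4a1 knockout, by -1.49 and -3.54. Gstm genes are close copies whose probes may not separate them.

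The next list holds both enzymes that remove superoxide and peroxide and subunits of the oxidases that make superoxide. Of 13 past the filter 7 stood higher and 3 lower in the circZbtb20 knockout, and of 12 in the Nr4a1 knockout 3 were higher and 5 lower, beside 36.7% and 44.0% of all genes called. Sod1, the copper-zinc superoxide dismutase, was at 13.39 and 13.77 in the wild types, 18.22 in the circZbtb20 knockout and 11.73 in the Nr4a1 knockout. Cat, which encodes catalase, was at 11.12 and 11.28 in the wild types, 9.89 in the circZbtb20 knockout and 15 in the Nr4a1 knockout. Sod1 and catalase thus stood on opposite sides of the wild types in each knockout.

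Pon2, an antioxidant lactonase, was higher in the circZbtb20 knockout by 3.92 and 4.2 and lower in the Nr4a1 knockout by -2.52 and -2.80. Park7, a peroxide-sensing protein also called DJ-1, was higher in both, by 2.39 and 3.29 and by 2.61 and 1.71. Among subunits of the phagocyte oxidase, which makes superoxide, Cyba was higher in the circZbtb20 knockout by 4.54 and 4.03. Ncf1 was lower in both knockouts, by -1.73 and -3.47 in the first and by -4.66 and -2.92 in the second. Cybb was lower in the Nr4a1 knockout by -3.87 and -2.62. Rac2, the small GTPase that activates this oxidase in blood cells, was higher in both, by 1.69 and 1.6 and by 3.13 and 3.22. Macrophage and monocyte markers, which mark cells rich in this oxidase, had medians of 5.75 and 6.96 in the wild types, 4.72 in the circZbtb20 knockout and 4.49 in the Nr4a1 knockout. Their summed level was instead highest in the circZbtb20 knockout, at 14.58, against 12.38 and 14.00 in the wild types and 9.52 in the Nr4a1 knockout. Fcgr3 alone was at 14.47 in the circZbtb20 knockout, so that sum rests mostly on 1 gene. Of 13 markers past the filter, Fcgr3 was the 1 higher there than both wild types, and 4 were lower. The shares of all genes were 22.3% and 14.4%. The part of these markers in the oxidase values was not tested.

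The regulators of NRF2 and its other targets gave no single direction. Nfe2l2, which encodes NRF2, was at 3.24, 3.13, 3.85 and 3.62 over the circZbtb20 pair and the Nr4a1 pair, below every array median. Its own values therefore cannot be ordered. Nqo1, a classic NRF2 target, was at 4.83, 3.68, 4.27 and 2.84 in that order, near or below the medians too. Of 23 genes of this list past the filter 6 stood higher and 2 lower in the circZbtb20 knockout, and of 23 in the Nr4a1 knockout 10 were higher and 4 lower, beside 36.7% and 44.0% of all genes called.

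Bach1, the haem-regulated repressor of Hmox1 and other NRF2 targets, was at 8.64 and 8.93 in the wild types, 12.29 in the circZbtb20 knockout and 11.09 in the Nr4a1 knockout. It counted as higher in both. Rbx1, a subunit of the ligase that marks NRF2 for destruction, was higher in both knockouts, by 6.75 and 6.82 and by 1.98 and 1.91. Nfe2l1, a relative of NRF2, was higher in the circZbtb20 knockout by 2.39 and 2.33. Ugdh, which makes the sugar donor for glucuronidation, was higher there by 2.50 and 1.57. In the Nr4a1 knockout Sqstm1, the autophagy adaptor p62 that competes for KEAP1, was at 9.41 against 15.39 and 15.34. Maff, a small MAF partner of NRF2, was at 4.75 against 9.78 and 9.80, and it was also lower in the circZbtb20 knockout, at 7.56. Gpx2, an epithelial glutathione peroxidase, was lower by -3.47 and -1.13, the second of which became -0.99, short of 2-fold, with arrays at a common median. Ephx1, a detoxifying epoxide hydrolase, was higher by 3.04 and 1.84.

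The core of the antioxidant response element, searched as TGACNNNGC on both strands, was in 12.4% of all promoter windows. Of the 8 redox genes with a window in the RefSeq table, 5 held 1 match: Gclm, Prdx1, Srxn1, Mt2 and 1 of the 3 starts of Txnrd1. Their values are set beside the letters because these genes did not share a direction in the Nr4a1 knockout. Gclm and Prdx1 were higher there, and Srxn1, Mt2 and Txnrd1 were lower. The matched letters are in capitals, with 10 bases on either side, on the plus strand, which is the strand of all 5 genes.
Gclm, chr3:122245413-122245441: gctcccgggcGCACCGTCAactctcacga
Prdx1, chr4:116685456-116685484: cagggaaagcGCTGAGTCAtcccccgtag
Srxn1, chr2:152105542-152105570: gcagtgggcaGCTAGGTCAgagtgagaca
Txnrd1, chr10:82859104-82859132: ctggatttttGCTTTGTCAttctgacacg
Mt2, chr8:94172529-94172557: aaagggggtgTGACTCAGCgcggggggtg
The windows of Mt1, Txn1 and Txnip held none. Hmox1 and Gclc had no entry and were not searched.

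Counted over the 10 genes, the circZbtb20 knockout had 1 higher and 4 lower against its own wild type, where the same rule called 46.7% of all genes, 27.3% as higher and 19.4% as lower. Against the other wild type it had 2 higher and 3 lower, with 47.4% of all genes called, 26.4% higher and 21.0% lower. Against both it had 1 higher, Txnip, and 3 lower, Mt1, Mt2 and Gclm. That is 4 of 10 beside 36.7% of all genes, so the number of calls is near the background. The median difference of the 10 genes was -0.68 from the own wild type and -0.18 from the other, beside 0.17 and 0.11 over all genes past the filter.

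The Nr4a1 knockout had 4 higher and 4 lower against its own wild type, where 52.7% of all genes were called, 31.9% higher and 20.8% lower. It had the same counts against the other wild type, where the share was 53.2%, with 32.7% higher and 20.4% lower, and against both, where it was 44.0%. The 4 higher were Txn1, Txnip, Gclm and Prdx1, and the 4 lower were Mt1, Mt2, Txnrd1 and Srxn1. The median of the 10 genes was -0.46 from the own wild type and -0.80 from the other, beside 0.29 and 0.30 over all genes. Both knockouts were compared with the same wild types, so their shared directions for Mt1, Mt2 and Txnip are not separate observations. Lower in both against both wild types held for 4.8% of 9814 genes, higher in both for 7.67%, and a call in both, in any directions, for 19.8%. Between the wild types 2 of the 10 were higher in the Nr4a1 wild type, Mt2 and Txnip, and 1 was lower, Txnrd1, with 15.2% of all genes called, 8.48% higher and 6.77% lower.

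**Figure D4:**
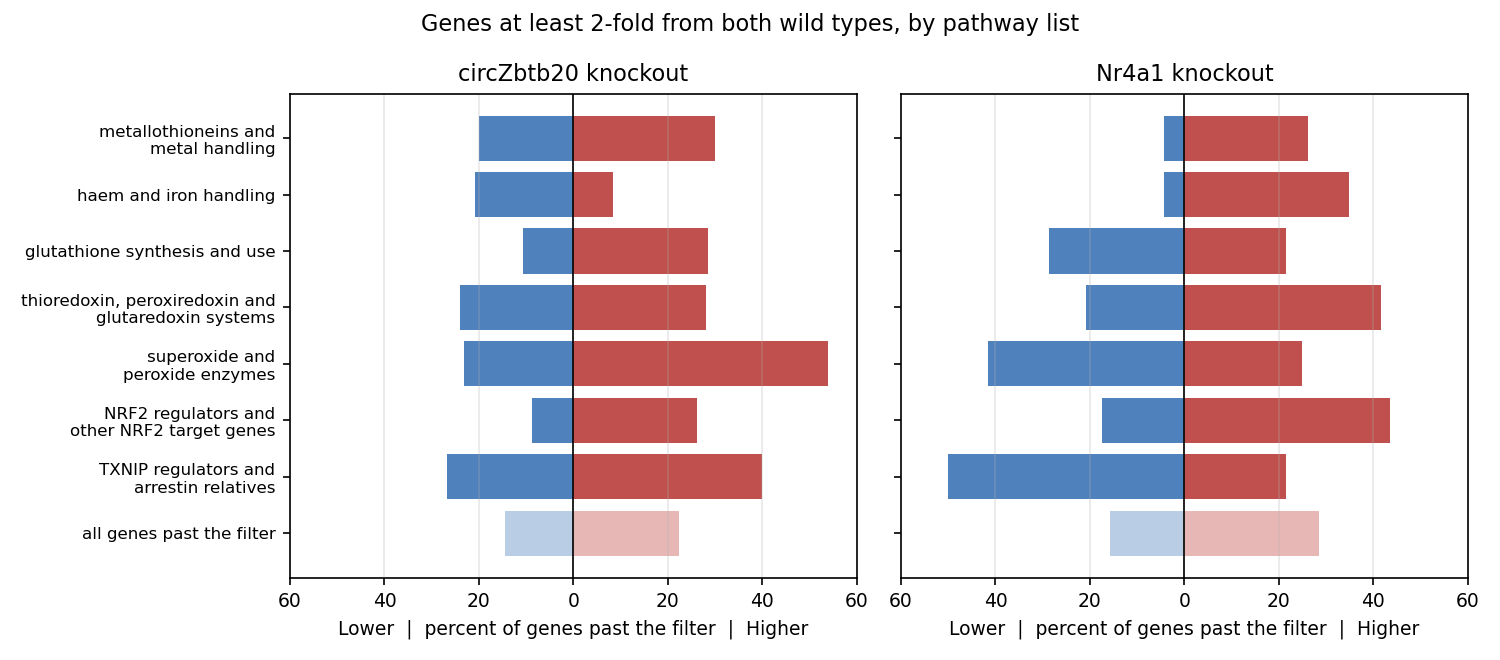
Percent of genes past the filter (horizontal axis) that were at least 2-fold lower (left) or higher (right) than both wild types, for each list of related genes (vertical axis) and, in paler bars, for all genes. The all-gene shares are 14.4% lower and 22.3% higher in the circZbtb20 knockout and 15.7% lower and 28.4% higher in the Nr4a1 knockout, and the lists do not include the 10 genes themselves.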

How the data were processed

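The data are 1 table of deposited log2 expression values for 4 arrays, which the authors made with Affymetrix Power Tools and RMA, per the submitters' processing notes. For versions, settings and the genome build behind the rows, nothing is stated in those notes. The shared highest value of 19.93 was treated as a ceiling, and the reason for it is not given. Whether the values keep the usual RMA scale is not stated either. The 75th percentiles of the arrays over all rows lay between 6.58 and 6.94.

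Of 22205 rows 19571 had 1 gene symbol in the platform's probe table, 0 had several and 2634 had none. Where a gene had several rows, that of highest mean was kept, which left 19504 genes. Arrays were grouped by title. Each knockout was set against both wild types, with no test and no p-value. The genes and lists were chosen with earlier results of these data known. Beside the 10 genes, up to 4 genes per list were named, those with the greatest difference past the rule against both wild types, and the 3 nearest in pattern to each of the 4 genes of widest range. Other genes, such as Nfe2l2, Nqo1, Mt3 and Mlx, and values of a named gene in the other knockout were chosen after they were seen. Alternatives were 3 scalings (limma 3.58.1 in R 4.3.3), 2 filters, a 4-fold threshold and the mean of rows. Promoters come from RefSeq, GRCm38.p6.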

Additional observations from a re-analysis of the deposited data

Results flagged for a closer look

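Among the 65 genes named by rule, 14 were at least 2-fold higher in 1 knockout and at least 2-fold lower in the other, each against both wild types, as 7.34% of 9814 genes past all filters were. Most of the 65 were named for having the greatest differences of their list, so the shares are not alike in their choice of genes. The difference between the knockouts was not tested, and each rests on 1 array per genotype. Values are given from the own wild type, first for the circZbtb20 knockout and then for the Nr4a1 knockout. Gclm was at -1.63 and 2.12, Hmox2 at -1.85 and 2.85, and Pcbp2 at -2.82 and 1.64. Cat was at -1.23 and 3.72, Rrm1 at -1.37 and 5.06, Rrm2 at -2.47 and 5.68, and Ddit4 at -1.64 and 3.16. The reverse order held for Sod1 at 4.83 and -2.04, Pon2 at 3.92 and -2.52, Gpx4, a selenoprotein that repairs lipid peroxides, at 2.68 and -3.39, and Gstm5 at 2.94 and -1.49. It also held for Arrdc4 at 2.28 and -11.34, Arrdc3 at 1.07 and -5.49, and Hk2 at 1.62 and -5.43. Arrdc3 in the circZbtb20 knockout was under 2-fold from its own wild type after quantile normalization, at 0.59, and after cyclic loess normalization, at 0.58.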

How the results depend on the processing

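Each of the 350 recomputed differences of the 10 genes kept its direction where the gene was called. None moved by more than 0.787, the SD of the difference between the wild types over genes past the filter. Only the 3 scalings could move these differences or their medians. The filters, the 4-fold threshold and the mean of rows leave them unchanged, because each of the 10 genes has 1 row. The largest move of a called difference under the 3 scalings was 0.61. Setting arrays to a common median moved the median of all genes by up to 0.17 in the knockouts. At a 4-fold threshold the counts of the 10 genes shrank. Against its own wild type the circZbtb20 knockout then had 1 lower, against the other 0 higher, and against both 1 lower and 0 higher. The Nr4a1 knockout had 2 higher against its own wild type and 2 against both, and the wild types differed in 0 higher and 0 lower. With the filter at the 75th percentile the circZbtb20 knockout had 2 lower against its own wild type and 1 higher against the other, and after quantile normalization 1 higher against the other. The other 122 of 133 counts and medians stayed within 1.5 times or 1 SD, as did 83 of 98 counts of the lists. The other 15 list counts fell, all at the 4-fold threshold or the stricter filter. No paired analysis was possible because each genotype has 1 array and the labels give no replicate numbers.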

Other observations

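Txnrd1 is a selenoprotein, and a list of 28 selenoproteins and selenocysteine synthesis factors, written after several of its values had been seen, was read as a description. In the circZbtb20 knockout 10 of 25 past the filter were higher than both wild types and 3 lower, and of 23 in the Nr4a1 knockout 2 were higher and 7 lower. The shares of all genes called were 36.7% and 44.0%. Secisbp2, which recruits the selenocysteine machinery to its messages, was at 10.04 in the circZbtb20 knockout against 6.63 and 6.21 in the wild types. Selenos, of the endoplasmic reticulum, was at 9.28 there against 6.09 and 5.86. In the Nr4a1 knockout Eefsec, the elongation factor for selenocysteine, was at 9.77 against 5.23 and 6.26, and Gpx4 was at 9.69 against 12.44 and 13.08.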
